A study of Mus musculus with 12 samples.

Results

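The transcription factors that direct myeloid differentiation were examined in RNA-Seq of Lin-cKit+ (LK) cells, a progenitor-enriched fraction of mouse bone marrow. The genes were chosen by name and not by a rule on their values, although earlier results of these data were known. They were Spi1, Cebpa, Cebpb, Cebpd, Cebpe, Gfi1, Irf8, Klf4, Myb and Id2, 10 of the 55291 genes in the count table. All 10 passed the filter on low counts, which kept 15825 genes. LK cells of 4 genotypes on a C57BL/6 background were compared, with 3 libraries of each, each library from an individual mouse, at 12 months of age. WT mice carried neither lesion. Asxl1Y588XTg mice carried a transgene for a truncated ASXL1 and were taken at a preleukemic stage. Kdm6bΔ/+ mice had lost 1 allele of Kdm6b, which encodes an H3K27me3 demethylase, through the interferon-inducible Mx1Cre after injection of polyinosine-polycytidine. Asxl1Y588XTg Kdm6bΔ/+ mice (double mutants) carried both. The sources used here do not say whether the WT and Asxl1Y588XTg mice of these libraries carried Mx1Cre or received the injections, so that part of the treatment cannot be told apart from the Kdm6b deletion.

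Myeloid cells are specified by a small network of DNA-binding proteins. PU.1, the product of Spi1, and C/EBPα, the product of Cebpa, open the program in multipotent progenitors, and later members divide it, with Gfi1 and C/EBPε serving neutrophils and Irf8 and Klf4 serving monocytes and dendritic cells. Myb maintains immature progenitors, and Id2 encodes an inhibitor that keeps E proteins off DNA.

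Total counts ran from 14451522 to 23482563 reads per library. WT replicate 1 had 18630 detected genes and Kdm6bΔ/+ replicate 1 had 20400, against 22727 to 25380 in the other 10 libraries. Y-linked transcripts were present in 0 of 3 WT, 2 of 3 Kdm6bΔ/+, 1 of 3 Asxl1Y588XTg and 3 of 3 double mutant libraries, so sex and genotype cannot be told apart between WT and double mutants. Sex was also unbalanced in every other comparison of genotypes. Kdm6b, a check of the labels, was at 2145, 2375 and 1871 normalized counts in WT and at 1625, 1531 and 1347 in Kdm6bΔ/+ libraries. These did not overlap, as for 8.93% of all genes, with a log2 fold change of -0.51 and an edgeR adjusted p of 0.279. Kdm6b was at 2274, 2306 and 2190.0 in Asxl1Y588XTg and 1651, 1875 and 1912 in double mutant libraries. These did not overlap either, as for 21.2% of all genes, with a log2 fold change of -0.30 and an edgeR adjusted p of 0.0717. However, 2 of the double mutant values lay above the lowest WT value. Asxl1 was at 2549, 3085 and 2766 normalized counts in WT and at 2910, 3065 and 3038 in Asxl1Y588XTg libraries. These overlapped, so the count of this gene did not check the transgene label. Normalized counts are raw counts scaled to a common library size. The LK label was compared with its markers: Kit lay between 5772 and 7770.1 normalized counts, and Cd3e, a T cell gene, between 0 and 17.1. Low Cd3e alone did not check for RNA of other lineages. Lists of genes were summed as counts scaled to library size (CPM). The 7 T and NK cell genes, Cd3e among them, summed to 181 to 270 CPM, and the 6 B cell genes to 40.7 to 142 CPM. The 14 genes of late neutrophil granules and mature neutrophils summed to 58908 to 89673 CPM, so RNA of maturing neutrophils was present in every library. In such bulk samples, fewer cells of a type and less RNA per cell cannot be told apart.

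The 10 factors were expressed at widely different levels. Levels of different genes were compared as counts scaled by exon length and library size (RPKM). Cebpe, the factor of late granulocyte development, was highest at a mean of 207 RPKM over the 12 libraries (range 186 to 236). Spi1 followed at 101 RPKM (86.6 to 110.0), and these ranges did not overlap. Then came Myb at 57.7, Cebpa at 51.5, Gfi1 at 40.5, Id2 at 31.4, Cebpd at 29.8, Cebpb at 24.5 and Irf8 at 20.4 RPKM. Each of these neighbours overlapped in range, and Id2 exceeded Cebpd in only 9 of 12 libraries, Cebpb exceeded Irf8 in 11 of 12, and every other neighbour kept its order in all 12. Klf4 was lowest at 7.27 RPKM (5.22 to 10.2), below the range of Irf8. Among the 15481 tested genes with an annotated length, Cebpe in WT stood at percentile 99.3, Spi1 at 98.0, Myb at 96.4, Cebpa at 95.6 and Klf4 at 60.4.

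**Figure D1:**
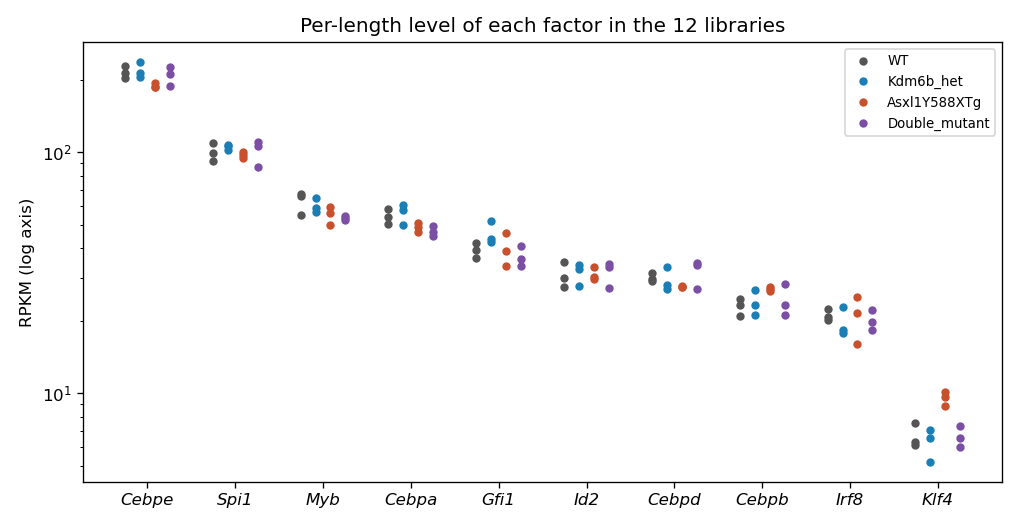
Level of each factor in RPKM on a log axis, one point per library, coloured by genotype and ordered by the mean over 12 libraries. Cebpe sits at 186 to 236 RPKM and Klf4 at 5.22 to 10.2 RPKM, outside the ranges of their neighbours.

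Variation between mice was modest. The SD of log2 CPM within genotypes ran from 0.094 for Cebpe to 0.21 for Irf8, against a median of 0.21 over all genes tested. The lowest member, Klf4, had 282 to 542 raw reads per library and a counting CV of 5.08%. Its SD of log2 CPM within genotypes was 0.17. Its CV over all 12 libraries, which includes the differences between genotypes, was 21.2%. The share of variance that lay between genotypes was 76.6% for Klf4, 61.1% for Cebpa, 52.4% for Cebpe and 49.2% for Myb. It was 5.57% for Irf8 and 1.05% for Id2, and the median over all genes tested was 31.6%. These shares are a description and carry no test.

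**Figure D2:**
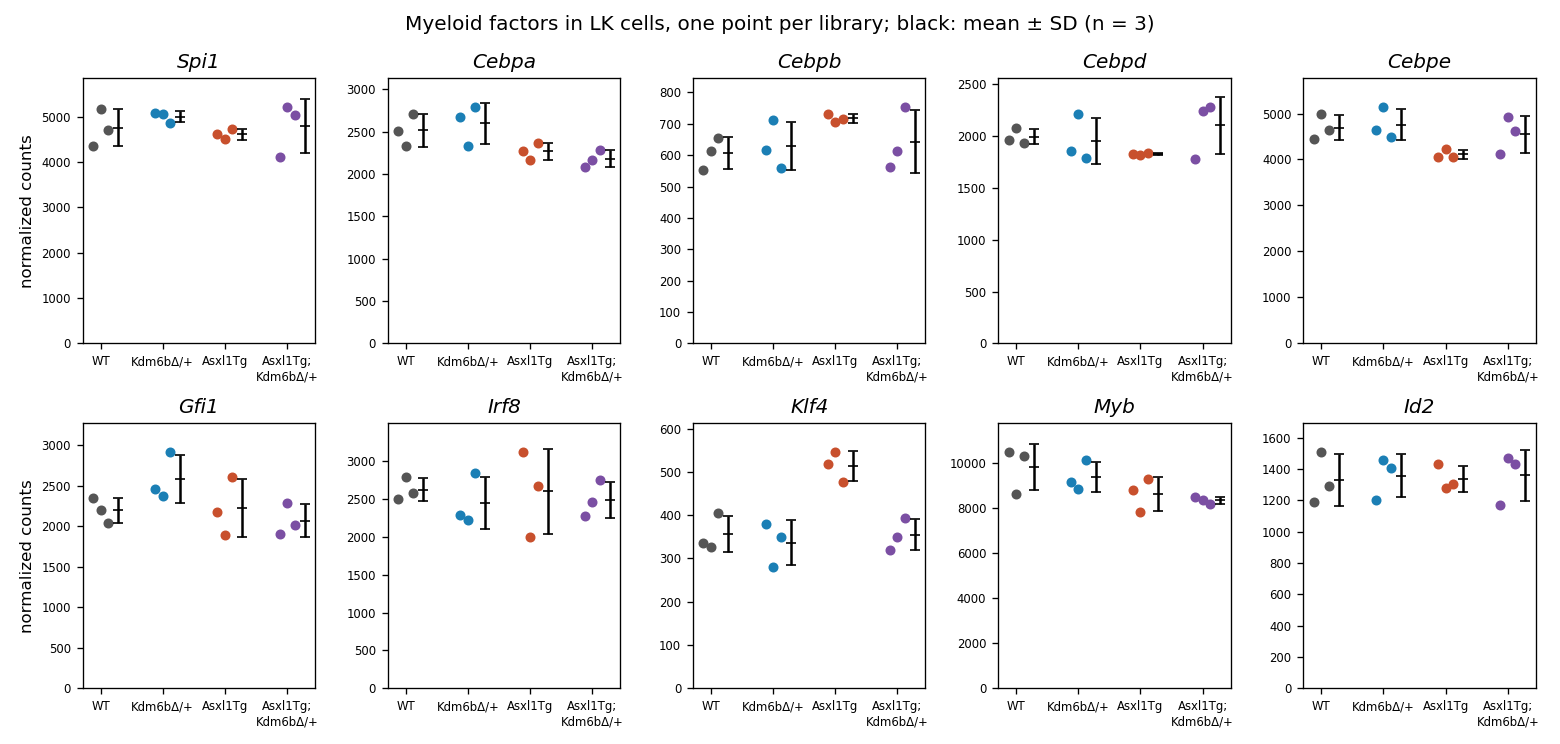
Normalized counts of the 10 factors in each library, with axes starting at 0 (Asxl1Tg stands for Asxl1Y588XTg). Points are libraries and black bars are mean ± SD of 3. The Klf4 values of Asxl1Y588XTg lie at 476 to 546, above all other libraries.

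The 250 bases before the RefSeq start (GRCm38.p6) are shown for Klf4, the factor that differed most between Asxl1Y588XTg and WT, and for Cebpa and Myb, the pair most strongly correlated over the libraries. RefSeq entries were matched for 7 of the 10 factors. Capitals mark CACCC, a box read by Krüppel-like factors, and GGGCGG, a GC box, on either strand. The Klf4 sequence is chr4:55532476-55532725 on the minus strand, Cebpa chr7:35119043-35119292 on the plus strand and Myb chr10:21160985-21161234 on the minus strand.
Klf4: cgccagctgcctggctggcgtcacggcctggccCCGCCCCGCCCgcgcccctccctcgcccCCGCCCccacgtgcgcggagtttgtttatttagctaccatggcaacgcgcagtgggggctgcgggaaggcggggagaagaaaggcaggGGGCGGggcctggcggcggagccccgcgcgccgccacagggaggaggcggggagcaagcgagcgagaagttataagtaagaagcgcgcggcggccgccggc
Cebpa: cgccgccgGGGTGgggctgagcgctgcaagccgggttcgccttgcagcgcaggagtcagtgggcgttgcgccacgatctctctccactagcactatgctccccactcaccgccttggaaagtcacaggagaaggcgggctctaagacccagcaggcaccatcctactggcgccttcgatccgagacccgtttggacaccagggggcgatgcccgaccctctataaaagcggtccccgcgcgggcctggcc
Myb: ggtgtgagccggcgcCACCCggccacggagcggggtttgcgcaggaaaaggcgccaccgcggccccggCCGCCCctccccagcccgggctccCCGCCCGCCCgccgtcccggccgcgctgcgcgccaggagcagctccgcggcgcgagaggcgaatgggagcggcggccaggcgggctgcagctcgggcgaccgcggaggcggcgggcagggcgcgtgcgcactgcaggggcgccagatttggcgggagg
Klf4 held 4 GC boxes and no CACCC, Cebpa 1 CACCC and no GC box, and Myb 1 CACCC and 3 GC boxes. GGGCGG was found in 32.7% and CACCC in 52.0% of all 32851 promoter windows of this length. GAGGAA (found in 23.3% of windows), CCAAT (33.9%), TGACG (17.8%) and AACNG (74.2%) were searched on both strands as well, and of these Klf4 held 1 TGACG and Cebpa 1 AACNG. A match is a description of the letters and not a binding site.

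The effect of truncated ASXL1 was read from Asxl1Y588XTg against WT. A gene was called when its adjusted p (edgeR quasi-likelihood test, Benjamini-Hochberg over all genes tested) was under 0.05 and its fold change above 1.5. None of the 10 factors was called by edgeR, by which 1.61% of all genes tested were called. With DESeq2, 0 were called as well. At an unadjusted p under 0.05 there were 3 of 10 factors, Klf4 and Cebpb higher and Cebpe lower, where 9.35% of all genes reached that p. The groups did not overlap for 4 of 10, these 3 and Cebpd, where 15.7% of all genes did not overlap. The median log2 fold change of the 10 was -0.029, and that of all genes tested was -0.010.

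Klf4, a Krüppel-like factor of monocyte differentiation whose promoter is printed above, differed most. It was at 336, 327 and 404 normalized counts in WT and at 518, 546 and 476 in Asxl1Y588XTg libraries. Every Asxl1Y588XTg library was above every WT library. The log2 fold change was 0.53 (SE 0.13), a fold of 1.44, with a 95% interval of 0.24 to 0.81 and an adjusted p of 0.0869 by edgeR. The adjusted p was 0.027 with DESeq2, 0.0412 with all 4 genotypes in 1 edgeR fit and 0.0207 without the expression filter. With a term for Y-linked transcripts the log2 fold change was 0.44 and the adjusted p 0.112 by edgeR. The adjusted p ranged from 0.0207 to 0.343 over the 13 alternatives, none of which brought both the p and the fold past their thresholds.

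Cebpb, the C/EBP factor of emergency granulopoiesis, was at 552, 613 and 654 in WT and at 732, 704 and 716 in Asxl1Y588XTg. Its log2 fold change was 0.24 (SE 0.10) with an adjusted p of 0.49 by edgeR, so the separation did not pass the correction over all genes. Cebpe was at 4448, 4979.8 and 4637 in WT and at 4062, 4231 and 4063 in Asxl1Y588XTg libraries. All 3 transgenic values were below the WT values, with a log2 fold change of -0.19 (SE 0.074) and an adjusted p of 0.421 by edgeR. Cebpd, an acute-phase C/EBP factor, was at 1962, 2073 and 1936 in WT and at 1828, 1817 and 1836 in Asxl1Y588XTg, a log2 fold change of -0.13 (SE 0.073) with an adjusted p of 0.696 by edgeR, and of -0.074 with a term for Y-linked transcripts. The remaining 6 did not separate. Cebpa gave a log2 fold change of -0.15 (SE 0.084) and Myb of -0.19 (SE 0.10), while Spi1, Gfi1, Irf8 and Id2 lay between -0.044 and 0.016. Their 95% intervals were -0.23 to 0.14 for Spi1, -0.25 to 0.28 for Gfi1, -0.35 to 0.32 for Irf8 and -0.23 to 0.24 for Id2, which leave out a change of 1.5-fold in either direction.

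Several gene lists moved beside these values. All 5 stem cell genes counted here (Procr, Slamf1, Mecom, Hlf and Fgd5) rose, with log2 fold changes of 1.26 for Hlf, 2.53 for Fgd5 and 1.99 for Mecom, and their summed level was 39.3 to 50.2 CPM in WT against 122 to 154.0 CPM in Asxl1Y588XTg. Of the 11 immediate-early genes, which respond to stimulation and to cell handling, 11 had a positive log2 fold change and 0 were called, with Junb at 0.69 and Nr4a1 at 1.20. The part of either list in the Klf4 difference was not tested. The 4 eosinophil genes were lower in every Asxl1Y588XTg library than in every WT library and 0 of 4 were called, at 876 to 1651 CPM summed against 2077 to 3567 in WT. Their part in the Cebpe and Cebpd values was not tested. Of the 14 late granule genes, 3 had a positive log2 fold change, with a median of -0.14. Of the 6 primary granule genes, 0 had a positive log2 fold change, with a median of -0.091. The part of these granule genes in the Cebpe and Cebpd values was not tested either.

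**Figure D3:**
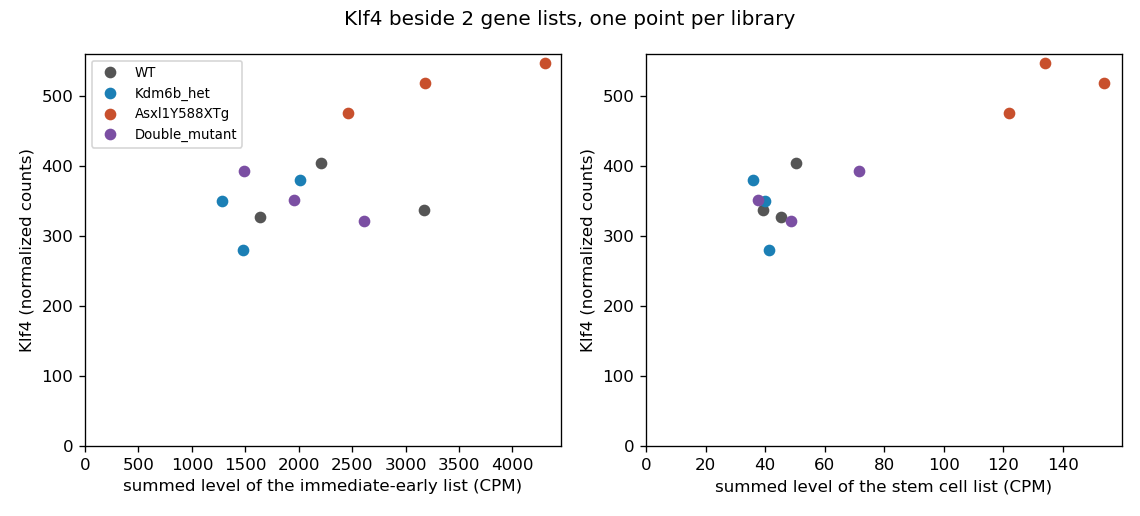
Klf4 in normalized counts against the summed CPM of the immediate-early list (left) and of the stem cell list (right), one point per library, coloured by genotype. The stem cell sum is 122 to 154.0 CPM in Asxl1Y588XTg and 36.0 to 71.4 CPM elsewhere, while the immediate-early sums of Asxl1Y588XTg and WT overlap.

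Among 23 partners and antagonists of the factors, 1 was called. Gata2, a stem and mast cell factor that opposes PU.1, rose by 0.73 (SE 0.13) on the log2 scale with an adjusted p of 0.0276 by edgeR. Egr2 gave 0.77 (SE 0.34) and was not called. None of the 6 primary granule genes, 14 late granule genes, 8 myeloid cytokine receptors, 17 monocyte and dendritic genes or 6 genes associated with Myb was called, and 0, 1, 0, 0 and 1 of them reached an unadjusted p under 0.05. The smallest p values in each list belonged to Elane and Ms4a3 (log2 fold changes of -0.12 and -0.087), Chil3 and Ly6g (-0.30 and -0.31), Csf3r and Kit (0.26 and 0.17), H2-Ab1 and Ly6c2 (0.72 and -0.16), and Ccnb1 and Bcl2 (-0.32 and 0.20). The H2-Ab1 value leaned on replicate 1, with 2371, 1014 and 1072 normalized counts in Asxl1Y588XTg and 981, 836 and 886 in WT libraries.

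The other marker lists were counted in the same way. None of 10 interferon-induced, 8 cell cycle, 6 B cell, 7 T and NK cell, 8 erythroid, 5 megakaryocyte, 7 mast cell and basophil, 6 stromal and endothelial or 3 LK-defining genes was called by edgeR in Asxl1Y588XTg against WT. The megakaryocyte genes summed to 249 to 673 CPM in Asxl1Y588XTg and 78.4 to 150 CPM in WT, and the erythroid genes to 275 to 641 and 398 to 532 CPM. The interferon genes summed to 241 CPM in Asxl1Y588XTg replicate 1 and to 120.2 to 143 CPM in the other transgenic and the WT libraries. Of the 8 cell cycle genes, 1 had a positive log2 fold change, with a median of -0.14. In that list 2 were lower at an unadjusted p under 0.05 by edgeR. There, 5 were lower in every Asxl1Y588XTg than in every WT library, where 15.7% of all genes did not overlap. Their part in the values of the factors was not tested.

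The effect of losing 1 Kdm6b allele on the transgenic background was read from the double mutants against Asxl1Y588XTg. Again 0 of 10 factors were called by edgeR and 0 by DESeq2, where 1.74% of all genes were called by edgeR. Klf4 and Cebpd reached an unadjusted p under 0.05, where 15.4% of all genes did, and only Klf4 separated the groups, where 21.2% of all genes did. Klf4 was at 321, 350.5 and 393 normalized counts in the double mutants, below each of the 3 Asxl1Y588XTg values given above. Its log2 fold change was -0.52 (SE 0.11) with a 95% interval of -0.75 to -0.28 and an adjusted p of 0.0375 by edgeR, under the p threshold but short of the fold of 1.5. Without double mutant replicate 3 the log2 fold change was -0.60 and the adjusted p 0.0328, which made Klf4 the 1 factor called. With a term for Y-linked transcripts the log2 fold change was -0.70 and the adjusted p 0.0717 by edgeR. With the replicate number as a block the adjusted p was 0.114. Over all 13 alternatives it ranged from 0.00053 to 0.155.

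Cebpd was at 1781, 2243 and 2281 in the double mutants, of which 2 were above the 3 Asxl1Y588XTg values and 1 below, a log2 difference of 0.22 (SE 0.095) with an adjusted p of 0.3 by edgeR. Cebpe was at 4116, 4914 and 4616, a log2 difference of 0.16 (SE 0.078), and Cebpb at 561, 614 and 754, a log2 difference of -0.14 (SE 0.11). Both overlapped Asxl1Y588XTg. The other 6 lay between -0.088 (Gfi1) and 0.07 (Spi1) on the log2 scale. In the lists, Gata2 was called lower (-1.02 (SE 0.12), adjusted p of 0.00686 by edgeR). All 5 stem cell genes had a negative log2 fold change and 4 were called. Of these, Fgd5 fell by 1.65, Procr by 2.16 and Slamf1 by 0.95 on the log2 scale. All 11 immediate-early genes had a negative log2 fold change, and Junb and Nr4a1 were called. Junb fell by 0.82 and Nr4a1 by 1.44 on the log2 scale. Of the 10 interferon-induced genes, 10 had a negative log2 fold change, with a median of -1.34, 6 had an unadjusted p under 0.05 and 0 were called. Their summed level was 89.1 to 114 CPM in double mutants against 121 to 241 CPM in Asxl1Y588XTg. The part of these lists in the Klf4 value was not tested. None of the granule, receptor, monocyte and dendritic or Myb-associated genes was called here. Of the 14 late granule genes, 13 had a positive log2 fold change, with a median of 0.15, as had 4 of the 6 primary granule genes. All 8 cell cycle genes had a positive log2 fold change. Of these, 4 were higher in every double mutant than in every Asxl1Y588XTg library, where 21.2% of all genes did not overlap. The part of the granule and cell cycle lists in the values of the factors was not tested. The smallest p values outside the called genes belonged, by list, to Tcf3 (log2 difference of 0.26), Elane and Fcnb (0.20 and 0.20), Cybb and Ngp (0.23 and 0.30), Il3ra and Flt3 (-0.29 and 0.27), Xcr1 and Cd14 (-0.59 and -1.30), and Bcl2 and Cd34 (-0.26 and -0.20). The Cd14 value leaned on Asxl1Y588XTg replicate 2, with 346, 756 and 264 normalized counts in Asxl1Y588XTg and 163, 216 and 170 in double mutant libraries. This comparison and the previous one share the Asxl1Y588XTg libraries, so opposite signs in them are not independent.

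**Figure D4:**
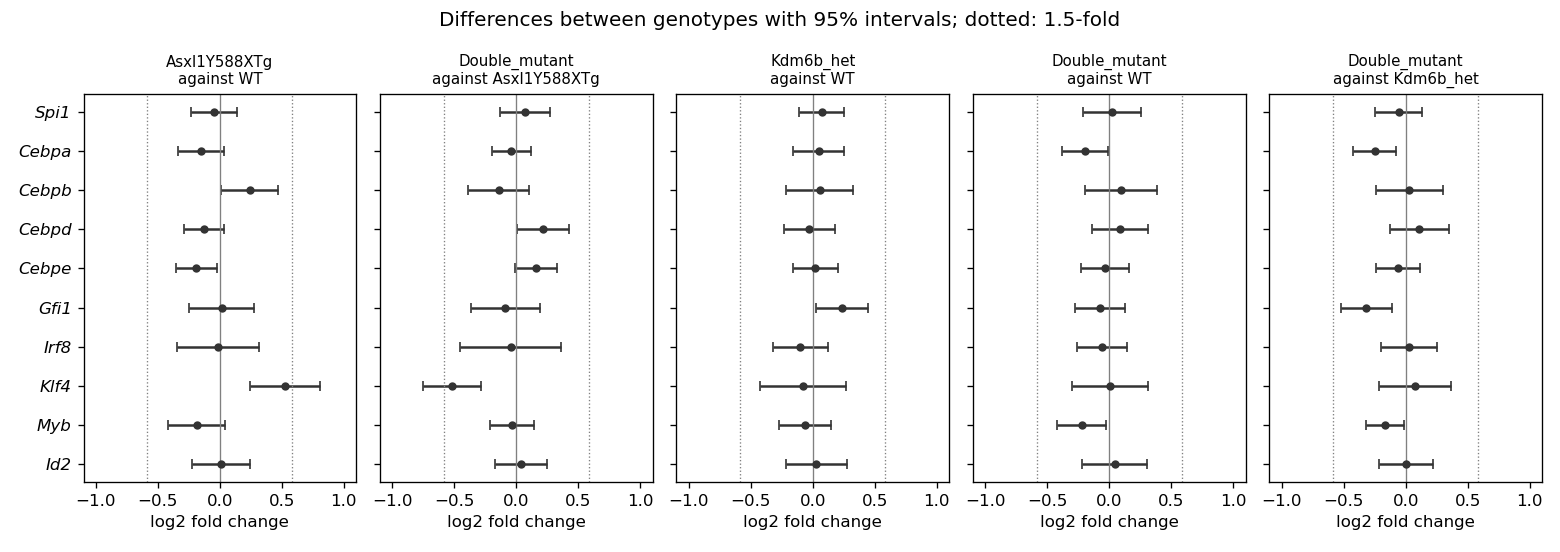
Log2 fold changes of the 10 factors with 95% intervals in the 5 pairwise comparisons, with dotted lines at a fold of 1.5. The Klf4 interval is 0.24 to 0.81 in Asxl1Y588XTg against WT and -0.75 to -0.28 in double mutants against Asxl1Y588XTg.

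Kdm6b deletion alone, Kdm6bΔ/+ against WT, gave 0 of 10 factors called by edgeR and 0 by DESeq2, where 0.0948% of all genes were called by edgeR. Gfi1, a repressor that promotes neutrophil development, was the 1 factor with an unadjusted p under 0.05, where 3.49% of all genes were, and the 1 that separated the groups, where 8.93% of all genes did. It was at 2348, 2208 and 2043 in WT and at 2460.2, 2375 and 2922 in Kdm6bΔ/+ libraries. The log2 fold change was 0.23 (SE 0.096) with an adjusted p of 1.0 by edgeR. Without Kdm6bΔ/+ replicate 3, the highest library, it was 0.15, and without WT replicate 1 and Kdm6bΔ/+ replicate 1, which had the fewest detected genes, it was 0.32. Klf4 was at 380.0, 280.0 and 350.4 in Kdm6bΔ/+, overlapping WT. Of the partner, granule, receptor, monocyte and dendritic and Myb-associated lists, 1 gene was called, H2-Ab1 of the antigen-presenting MHC class II, which fell by 0.66 on the log2 scale (adjusted p of 0.0452 by edgeR). Of the 17 monocyte and dendritic genes, H2-Ab1 among them, 4 had a positive log2 fold change, with a median of -0.20. In that list 5 were lower at an unadjusted p under 0.05 by edgeR. There, 4 were lower in every Kdm6bΔ/+ than in every WT library. All 6 primary granule genes had a positive log2 fold change, with a median of 0.17, and 0 reached that p. Among 8 erythroid genes, all with a negative log2 fold change, Hba-a2 fell by 1.44 on the log2 scale (adjusted p of 0.0202 by edgeR). All 11 immediate-early genes had a negative log2 fold change, with a median of -0.59, 4 had an unadjusted p under 0.05 and 0 were called. The part of these lists in the Gfi1 value was not tested.

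Double mutants were also set against WT and against Kdm6bΔ/+. Against WT, 0 factors were called by edgeR and 0 by DESeq2, where 0.215% of all genes were called by edgeR. Cebpa and Myb had an unadjusted p under 0.05, where 6.79% of all genes did, and both separated the groups, where 13.5% did. Cebpa was at 2504, 2327 and 2709 in WT and 2087, 2168 and 2288 in double mutants, a log2 difference of -0.19 (SE 0.084) with an adjusted p of 0.723 by edgeR. Myb was at 10519, 8650.0 and 10352 in WT and 8513, 8354 and 8218 in double mutants, a log2 difference of -0.22 (SE 0.089) with an adjusted p of 0.697 by edgeR. All 3 double mutant values were below all 3 WT values for both genes. Beside them, 1 of 8 erythroid genes had a positive log2 fold change and 3 were called lower. These fell by 2.20 (Hba-a2), 1.11 (Hbb-bt) and 1.49 (Alas2) on the log2 scale. All 5 megakaryocyte genes tested had a positive log2 fold change and 1 was called, Ppbp, which rose by 2.49. The 4 eosinophil genes were lower in every double mutant than in every WT library and 0 were called. Their part in the Cebpa and Myb values, and that of the erythroid and megakaryocyte genes, was not tested. Klf4 had a log2 difference of 0.0065 with a 95% interval of -0.30 to 0.31. With a term for Y-linked transcripts this was -0.26.

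Against Kdm6bΔ/+, 0 factors were called by edgeR and 0 by DESeq2, where 0.0948% of all genes were called by edgeR. Cebpa, Gfi1 and Myb had an unadjusted p under 0.05, where 12.2% of all genes did, and all 3 separated the groups, where 18.9% did. Cebpa was at 2673, 2325 and 2793 in Kdm6bΔ/+ and gave -0.25 (SE 0.081). Myb was at 9195, 8865 and 10157 and gave -0.17 (SE 0.072). Gfi1 was at 1901, 2295 and 2024 in double mutants and gave -0.32 (SE 0.094) on the log2 scale. The adjusted p values by edgeR were 0.266 for Cebpa, 0.376 for Myb and 0.236 for Gfi1. For Gfi1 it ranged from 0.0155, without the expression filter, to 0.54 over the 13 alternatives. Myb gave -0.11 without Kdm6bΔ/+ replicate 3. Beside these, all 5 megakaryocyte genes tested were higher at an unadjusted p under 0.05 and 1 was called, Itga2b, which rose by 0.68 on the log2 scale (adjusted p of 0.0184 by edgeR). The 4 eosinophil genes were lower in every double mutant than in every Kdm6bΔ/+ library and 0 were called. Of the 6 primary granule genes, 0 had a positive log2 fold change, with a median of -0.26. In that list 2 were lower at an unadjusted p under 0.05 by edgeR. Of the 14 late granule genes, 10 had a positive log2 fold change. Of the 8 cell cycle genes, 1 had a positive log2 fold change, and 5 were lower in every double mutant than in every Kdm6bΔ/+ library. The part of these lists in the Cebpa, Gfi1 and Myb values was not tested. In neither of these comparisons was a gene of the partner, granule, receptor, monocyte and dendritic or Myb-associated lists called. Both comparisons share the double mutant libraries.

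Whether Kdm6b deletion acted differently on the 2 backgrounds was tested as an interaction over all 12 libraries. No factor was called by edgeR or DESeq2, where 0.0126% of all genes were called by edgeR, and 1 of 10 had an unadjusted p under 0.05, where 6.87% of all genes did. This was Klf4, with a log2 interaction of -0.45 (SE 0.19), an unadjusted p of 0.0291 and an adjusted p of 0.681 by edgeR. Gfi1 gave -0.34 (SE 0.16) with an adjusted p of 0.729.

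The balance between factors was read as ratios of counts within each library, which do not depend on scaling. The exact two-sided permutation test of 3 against 3 libraries cannot go below p = 0.1, so no ratio could pass 0.05. The log2 ratio of Irf8 to Gfi1 was 0.087, 0.34 and 0.34 in WT and -0.11, -0.10 and -0.043 in Kdm6bΔ/+. All Kdm6bΔ/+ values were lower, by 0.34 in the mean (exact permutation p = 0.1), and the double mutants, at 0.26, 0.096 and 0.44, were all above Kdm6bΔ/+ (exact permutation p = 0.1). The log2 ratio of Cebpa to Cebpb was 2.18, 1.93 and 2.05 in WT and 1.63, 1.62 and 1.73 in Asxl1Y588XTg, with no overlap (difference -0.39, exact permutation p = 0.1). In double mutants it was 1.89, 1.82 and 1.60, also below WT (difference -0.28, exact permutation p = 0.1). The log2 ratio of Spi1 to Gata1, which opposes PU.1 in erythroid cells, overlapped in all 5 comparisons, with exact permutation p values of 0.7 to 0.9.

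Over the 12 libraries, 45 pairs of factors were correlated on log2 CPM, and none passed an adjusted p of 0.05, while 8 had an unadjusted permutation p under 0.05. Cebpa with Myb had the largest coefficient, with Pearson's r of 0.824 (permutation p = 0.00141, adjusted p = 0.0634) and Spearman's rho of 0.839 (permutation p = 0.00113, adjusted p = 0.0508). It was 0.699 without the 2 libraries farthest from the median of Cebpa, and 0.717 after the genotype means were removed. Cebpd with Cebpe had r of 0.765 (permutation p = 0.00508, adjusted p = 0.0798) and rho of 0.678 (permutation p = 0.019, adjusted p = 0.171), and 0.886 within genotypes. Spi1 with Cebpe had r of 0.746 (permutation p = 0.00532, adjusted p = 0.0798) and rho of 0.776 (permutation p = 0.00411, adjusted p = 0.0925), and 0.808 within genotypes.

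**Figure D5:**
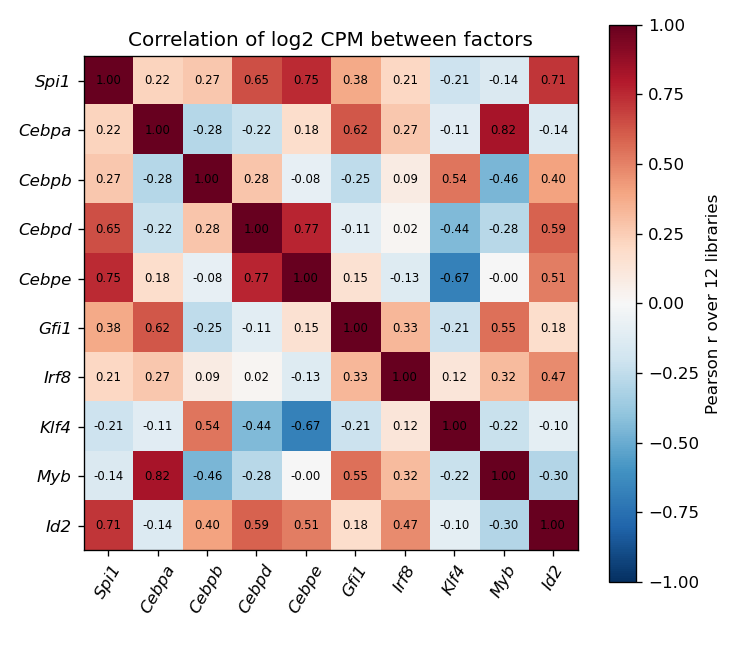
Pearson's r of log2 CPM between each pair of factors over 12 libraries, printed in each cell and coloured from -1 (blue) to 1 (red). The highest value off the diagonal is 0.82, Cebpa with Myb, and the lowest is -0.67, Cebpe with Klf4.

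Of the tested genes, 9892 averaged 100 or more normalized counts. Among these, the genes most like Klf4 over the 12 libraries were Pglyrp2 (r of 0.925), Meis1 (0.922) and Adgra3 (0.921), and these fell to 0.722, 0.658 and 0.695 within genotypes. Those most like Id2 were Apobr (0.950), C5ar1 (0.943) and Ptpn6 (0.900), which stayed at 0.980, 0.952 and 0.921 within genotypes. Cebpe was most like Hvcn1 (0.948), Ugdh (0.884) and Chil1 (0.878), and Cebpd most like H2aj (0.959), Mapk3 (0.897) and Rin3 (0.837). Spi1 was most like Gpatch11 (0.912), Was (0.909) and Fam222b (0.895), Cebpa most like Zfp35 (0.906), Erlin1 (0.885) and Cant1 (0.881), and Myb most like Gps1 (0.933), Rad54l (0.916) and Sf3a3 (0.901). Cebpb was most like Slc38a7 (0.871), Arhgap12 (0.867) and Sema4b (0.865), Gfi1 most like Spag5 (0.899), Nmt1 (0.860) and Neu1 (0.860), and Irf8 most like Arhgap17 (0.881), Gm2a (0.859) and Ifi209 (0.850). These were picked as the highest of 9892 coefficients and carry no test.

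In the GENCODE annotation of GRCm38, Klf4 lies at chr4:55527143-55532466, Cebpa at chr7:35119293-35121928, Cebpb at chr2:167688915-167690418, Cebpe at chr14:54710360-54712174, Gfi1 at chr5:107716657-107726036 and Myb at chr10:21124935-21160984. Genes on the opposite strand overlap Cebpa, Cebpb, Cebpd, Gfi1 and Myb, and a gene on the same strand overlaps Irf8. Tmem189 had 413 to 640 raw counts beside 490 to 760 for Cebpb, and Spidr 695 to 1151 beside 1476 to 2411 for Cebpd, so reads in the shared stretches could be assigned differently there. Klf4, Spi1, Cebpe and Id2 have no overlapping gene.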

How the data were processed

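LK cells were purified with beads, and total RNA of individual mice was sequenced. The labels name an NEB Ultra RNA library kit and a NextSeq instrument, whereas the study's methods name a stranded KAPA kit with ribosomal RNA removal and a HiSeq instrument, so strandedness is uncertain. Per the labels and methods, the authors trimmed reads with Trimmomatic, aligned them to mm10 with STAR and deposited raw counts per gene from HTSeq.

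From these counts, edgeR 4.0.16 (filterByExpr, TMM, robust quasi-likelihood fit, Benjamini-Hochberg over 15825 genes holding 99.9% of counts) was run on the 2 groups of each comparison, and on 12 libraries for the interaction. DESeq2 1.42.0 in R 4.3.3 was an alternative, as were other scaling, filters, a replicate block, a Y-linked term and leaving out each library. 1 further alternative was chosen after seeing the data. Scripts were tested on simulated counts. RPKM used GENCODE union exon lengths, and log2 CPM a prior count of 2. At total counts of 14451522 to 23482563 per library, the counting CV of the factors was 1.05% to 5.08%. Their CV over all 12 libraries was 7.24% to 21.2%. Within 1 genotype the spread of 3 mice could fall below counting error. Cebpd in Asxl1Y588XTg had an SD of 9.51 at a mean of 1827 normalized counts, beside a counting CV of 2.26%.

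Replicates differed beyond counting noise (chi-square per gene 7.4 to 30.8). Same-numbered libraries did not deviate together (18 pairs, r from -0.12 to 0.078), so numbers were not used as pairs. The factors and gene lists were chosen with earlier results of these data known. Named genes were the 10 factors, called genes of each list (up to 3 per direction, and with fewer than 2 called the 2 with the smallest p, given for the myeloid lists of the first 2 comparisons only) and the 3 genes most like each factor. The lists of markers of other cell types are given mainly as counts and sums, and 1 gene of them is not reported here.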

Additional observations from a re-analysis of the deposited data

How the results depend on the processing

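Of 60 values (10 factors in 6 comparisons), 850 alternative values were computed. The sign was kept in 767 and changed in 83, and in none of the 83 was the unadjusted p under 0.05. Only 3 of them exceeded a standard error of either fit. No factor was called in 84 of 85 refits. The exception was 1 factor, Klf4, in double mutants against Asxl1Y588XTg without double mutant replicate 3, where leaving out 1 library gave 0 to 1 factors called. All-gene calls ranged from 101 to 619 in Asxl1Y588XTg against WT (255 as reported) and from 48 to 812 in double mutants against Asxl1Y588XTg (275 as reported). The replicate block, whose numbers do not pair these libraries, gave Klf4 an adjusted p of 0.233 against WT and 0.114 in double mutants against Asxl1Y588XTg by edgeR, and called 0 factors.

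With a term for Y-linked transcripts the sign changed for Irf8 (0.031 in Asxl1Y588XTg against WT, 0.058 in double mutants against Asxl1Y588XTg, 0.015 in Kdm6bΔ/+ against WT, 0.089 in double mutants against WT), Cebpd (0.064 in Kdm6bΔ/+ against WT), Cebpe (0.014 in double mutants against WT) and Klf4 (-0.26 in double mutants against WT, -0.0028 against Kdm6bΔ/+). In 1 fit of all genotypes Klf4 was -0.0061 in double mutants against WT. The Id2 interaction was 0.0016 with DESeq2, 0.0013 with RLE scaling and 0.0033 at a mean count of at least 50. Without both libraries with the fewest detected genes, chosen after seeing the data, Myb was 0.0015 in Kdm6bΔ/+ against WT, and the interaction was 0.051 for Spi1 and -0.051 for Myb. The cause of these changes was not tested.

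Leaving out 1 library changed the sign of these log2 differences. In Asxl1Y588XTg against WT the values ran from -0.069 to 0.11 for Id2, -0.10 to 0.023 for Spi1, -0.17 to 0.15 for Irf8, -0.11 to 0.12 for Gfi1, -0.20 to 0.043 for the Irf8/Gfi1 ratio and -0.0058 to 0.67 for the Spi1/Gata1 ratio. In double mutants against Asxl1Y588XTg the values ran from -0.20 to 0.11 for Irf8, -0.19 to 0.043 for Gfi1, -0.10 to 0.025 for Myb, -0.028 to 0.14 for Id2, -0.033 to 0.21 for the Irf8/Gfi1 ratio and -0.27 to 0.20 for the Spi1/Gata1 ratio. In Kdm6bΔ/+ against WT the values ran from -0.044 to 0.14 for Cebpb, -0.039 to 0.072 for Cebpe, -0.046 to 0.14 for Id2, -0.0020 to 0.12 for Cebpa, -0.13 to 0.042 for Cebpd, -0.17 to 0.038 for Klf4, -0.024 to 0.66 for the Spi1/Gata1 ratio and -0.14 to 0.16 for the Cebpa/Cebpb ratio. In double mutants against WT the values ran from -0.036 to 0.13 for Spi1, -0.072 to 0.11 for Klf4, -0.032 to 0.15 for Id2, -0.085 to 0.038 for Cebpe, -0.14 to 0.0025 for Irf8, -0.033 to 0.19 for Cebpb, -0.077 to 0.095 for the Irf8/Gfi1 ratio and -0.088 to 0.59 for the Spi1/Gata1 ratio. In double mutants against Kdm6bΔ/+ the values ran from -0.049 to 0.15 for Irf8, -0.075 to 0.10 for Id2, -0.043 to 0.17 for Klf4, -0.10 to 0.13 for Cebpb, -0.12 to 0.044 for Spi1, -0.12 to 0.0064 for Cebpe and -0.29 to 0.22 for the Spi1/Gata1 ratio. For the interaction the values ran from -0.085 to 0.081 for Spi1, -0.052 to 0.10 for Myb, -0.11 to 0.086 for Id2 and -0.12 to 0.19 for Irf8. The ratio differences changed sign in 18 of 105 alternative values. The replicate block leaves a ratio difference unchanged by construction, so its values among the 105 could not change sign. The ratios named with an exact permutation p of 0.1 in the report could not change sign either. Their groups did not overlap, so leaving out 1 library cannot reverse the difference. Depth limits little here, since the lowest factor had 282 raw reads or more in each library.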
